A study of Mus musculus with 18 samples.

Results

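KLF factors were examined in splenic regulatory T cells (Tregs) from mice with and without the chromatin remodeler CHD8. The 8 genes described are Klf2, Klf3, Klf4, Klf6, Klf7, Klf10, Klf12 and Klf13, factors tied to T cell quiescence and trafficking. They were chosen by name from the RNA-Seq table, with earlier results of these data known. All 8 were among the 35865 gene names of that table, and 6 of them were among the 15240 genes that reached 1 TPM in at least 2 libraries and so entered the test. TPM scales the reads on a gene by its length and then to a fixed sum over all genes of the library.

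RNA was sequenced from 4 libraries, 2 of WT and 2 of Chd8-/- Tregs. A figure legend of the study gives 1 male and 1 female mouse for each genotype, and its methods give an age of 5 to 7 weeks. The labels do not say which library came from which mouse. In Chd8-/- mice, labelled CHD8Flox/FloxFoxp3YFP-Cre, a YFP and Cre fusion knocked into the Foxp3 locus deleted floxed Chd8 in cells that express Foxp3. The study describes its WT mice as Chd8+/+ with the same fusion. The WT libraries, littermates by the study's methods, carry the label CHD8flox/floxFoxp3YFP-Cre/+. The label and the study's WT genotype do not match, and the WT genotype could not be settled here. Every library is also labelled with Poly IC injection, in both genotypes alike. Cells were CD4+ T cells sorted for YFP, so both groups express the Foxp3-driven fusion. The labels do not state whether a library held 1 mouse or a pool. With 1 male and 1 female mouse for the 2 libraries of a genotype, the study's count amounts to 1 mouse a library. Chd8 itself was at 24.7 and 27.6 TPM in WT and at 14.9 and 11.4 TPM in Chd8-/- Tregs, lower by 0.95 on the log2 scale (SE 0.29, limma adjusted p = 0.455). The level was lower in both Chd8-/- libraries, and Chd8 reads remained, which at the level of the whole gene do not show the state of the floxed part.

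Krüppel-like factors bind GC-rich and CACCC-type DNA through zinc fingers at their C-terminal end, and differ in the N-terminal part that recruits activators or repressors. KLF2 is the best known of them in T cells: it is high in resting lymphocytes, is lost after strong antigen receptor signaling, and is needed for transcription of S1pr1, whose product lets T cells leave the thymus and the lymph nodes. Its gene is induced by the ERK5 and MEF2 pathway and by FOXO1. KLF4 restrains division of T cells, KLF3 and KLF12 are repressors that bind CtBP, KLF10 is a TGF-β-inducible factor with a role in Tregs, KLF13 was first described as an activator of Ccl5 in T cells, and KLF6 and KLF7 form a closely related pair.

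On the GRCm38.p6 assembly, which corresponds to the mm10 genome named for the RNA reads, Klf2 lies at chr8:72319062-72321654 on the plus strand and overlaps no other RefSeq gene. Klf6, at chr13:5861489-5870393 (plus), and Klf4, at chr4:55527137-55532475 (minus), likewise stand alone. Klf3 covers chr5:64803521-64832901 (plus), Klf13 covers chr7:63886351-63938915 (minus), Klf7 covers chr1:64029448-64122345 (minus), Klf10 covers chr15:38291464-38300711 (minus) and Klf12 covers chr14:99866181-100285891 (minus), and each of these 5 shares ground with other annotated genes. RefSeq promoters of this build were at hand for 7 of the 8, Klf10 being the one without an entry. The 150 bases before the annotated start are shown 5′ to 3′ on each gene's own strand for the 4 genes that were lower in both Chd8-/- libraries, at chr8:72318912-72319061 for Klf2, chr5:64803371-64803520 for Klf3, chr7:63938916-63939065 for Klf13 and chr1:64121390-64121539 for Klf7. Capitals mark CACCC or GGGTG, the same motif on the opposite strand, and in Klf2 also the match to the MEF2 motif. The Klf7 start used here lies inside the gene's annotated span, downstream of its longest transcripts. The Klf12 promoter counted below likewise lies inside its gene's span, its 150 bases being at chr14:100149797-100149946.
Klf2: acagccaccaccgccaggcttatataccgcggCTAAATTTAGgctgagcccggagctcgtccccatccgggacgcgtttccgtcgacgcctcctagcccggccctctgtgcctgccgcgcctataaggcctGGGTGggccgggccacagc
Klf3: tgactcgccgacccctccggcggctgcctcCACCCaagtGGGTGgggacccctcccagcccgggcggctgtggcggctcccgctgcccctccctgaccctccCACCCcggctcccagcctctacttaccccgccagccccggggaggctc
Klf13: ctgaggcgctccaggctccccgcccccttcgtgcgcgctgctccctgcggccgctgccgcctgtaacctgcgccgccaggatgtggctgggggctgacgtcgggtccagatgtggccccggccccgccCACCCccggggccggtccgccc
Klf7: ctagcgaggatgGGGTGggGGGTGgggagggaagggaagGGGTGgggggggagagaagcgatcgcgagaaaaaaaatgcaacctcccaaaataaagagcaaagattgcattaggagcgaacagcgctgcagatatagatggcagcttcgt
Over the 250 bases before the start, Klf3 held 5 copies of CACCC or GGGTG and Klf7 held 3, Klf2, Klf13 and Klf12 held 1 each, and Klf4 and Klf6 held 0, while 52% of the 32851 RefSeq promoters held at least 1. GGGCGG or CCGCCC, the GC box of the related SP factors, which can share a base with that motif as it does in Klf13, was present 6 times in Klf3, 4 times in Klf4, 3 times in Klf13, 2 times in Klf2, and 1 time each in Klf7 and Klf6, against 32.7% of all promoters with at least 1. The MEF2 motif, searched on both strands, was matched in Klf2 alone among the 7, 118 bases before the start, and in 0.508% of all promoters. GC content of the 250 bases ran from 48.0% in Klf12 to 78.4% in Klf3, with 71.2% in Klf2, and the median of all promoters was 52.4%. These matches describe letters and not binding.

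Klf2, Klf3, Klf13 and Klf7 were lower in both Chd8-/- libraries than in either WT library, Klf6 and Klf10 overlapped between genotypes, and Klf4 and Klf12 were close to 0 throughout. Klf2 had 158.8 and 164.5 TPM in WT and 90.0 and 98.2 TPM in Chd8-/- Tregs, so its mean was 41.8% lower. Klf7 had the largest difference, at a much lower level. None of the 6 genes tested passed an adjusted p of 0.05 (limma on log2(TPM + 1), Benjamini-Hochberg over all genes), which no gene of the 15240 did either (0%), the smallest adjusted p of any gene being 0.0807. Without adjustment, 1555 genes had p under 0.05, and the differences below are therefore given as values. An exact permutation of 2 libraries against 2 cannot give a p below 0.333, and p-values measure only the spread between these libraries.

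**Figure D1:**
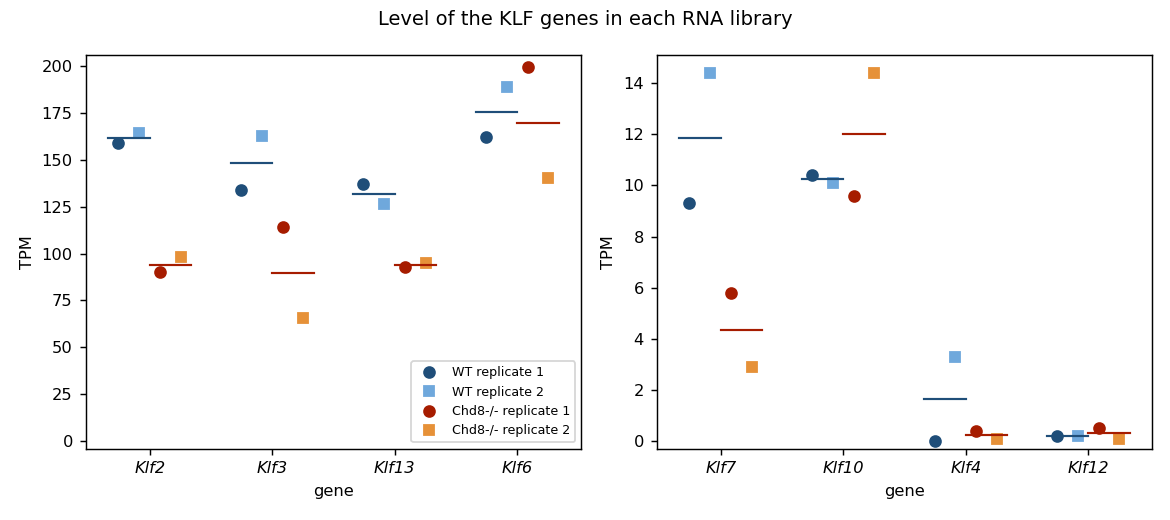
TPM (vertical axes, starting near 0) of the 4 abundant KLF genes (left) and the 4 low ones (right) in each of the 4 RNA libraries; points are single libraries and short lines are the means of WT (blue) and Chd8-/- (red). Klf2, Klf3, Klf13 and Klf7 show both red-toned points below both blue ones, whereas the points of Klf6 and Klf10 interleave.

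Klf2 showed the tightest separation of the abundant genes, with group means of 161.7 TPM ± 4.03 and 94.1 TPM ± 5.80 (SD, n = 2). Its log2 fold change on log2(TPM + 1) was -0.78 (SE 0.18, limma unadjusted p = 0.00974, adjusted p = 0.409), and it was lower without overlap. Klf4, the other factor that restrains T cell division, was listed at 0 and 3.3 TPM in WT and at 0.4 and 0.1 TPM in Chd8-/- Tregs. Only 1 library reached 1 TPM, so no difference was tested for Klf4.

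The 2 CtBP-binding repressors sat at opposite ends of the range of levels. Klf3, abundant in these cells, had 134.2 and 162.8 TPM in WT and 114.4 and 65.4 TPM in Chd8-/- Tregs. The groups did not overlap, but the Chd8-/- libraries differed more from each other than Chd8-/- replicate 1 differed from WT replicate 1. Its log2 fold change of -0.77 (SE 0.33, limma adjusted p = 0.537) was -0.37 without Chd8-/- replicate 2 and -1.16 without Chd8-/- replicate 1. Klf12 had 0.2 TPM in both WT libraries and 0.5 and 0.1 TPM in Chd8-/- Tregs, below the minimum for a test.

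The 2 factors that work with SIN3 corepressors, Klf13 and Klf10, differed in pattern. Klf13 had 137.0 and 126.5 TPM in WT and 93.1 and 94.8 TPM in Chd8-/- Tregs, a mean 28.7% lower with no overlap (log2 fold change -0.48, SE 0.18, limma unadjusted p = 0.0488, adjusted p = 0.487). Klf10 had 10.4 and 10.1 TPM in WT and 9.6 and 14.4 TPM in Chd8-/- Tregs. Only Chd8-/- replicate 2 was above WT, and the log2 fold change of 0.18 (SE 0.35, limma adjusted p = 0.877) became -0.086 without that library.

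The related pair Klf6 and Klf7 differed in level by more than 10-fold in every library. Klf6, the most abundant of the 8 in each genotype, had 162.4 and 188.9 TPM in WT and 199.5 and 140.4 TPM in Chd8-/- Tregs. The Chd8-/- libraries held both its highest and its lowest value, and its log2 fold change was -0.07 (SE 0.25, limma adjusted p = 0.947). Klf7 had 9.3 and 14.4 TPM in WT and 5.8 and 2.9 TPM in Chd8-/- Tregs. Its mean was 63.3% lower without overlap, with a log2 fold change of -1.29 (SE 0.47, limma unadjusted p = 0.0481, adjusted p = 0.487), the single member at -1 or less. Without Chd8-/- replicate 2 it was -0.89.

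The members and all gene lists below were chosen with earlier results of these data known. Their counts beside the shares of all genes are therefore descriptive and not a test. Read against all genes tested, 4 of the 6 members were lower without overlap where 27.8% of all genes were. Higher without overlap were 0 of 6, where 14.8% of all genes were. At a log2 fold change of -1 or less stood 1 of 6, against 11.6% of all genes, and at 1 or more stood 0 of 6, against 5.12%. Unadjusted p was under 0.05 with a lower value for 3 of 6, Klf2, Klf7 and Klf13, against 6.3% of all genes. That count was 1 of 6 with the medians set equal, with replicate numbers as a block, with a minimum mean of 5 TPM or without Chd8-/- replicate 2, and 0 without either WT library. Over all genes, that count was 697 with the medians set equal and 831 with the block, of 15240 each. With a minimum mean of 5 TPM it was 676 of 11351. The median log2 fold change was -0.62 over the 6 members and -0.15 over all 15240 genes, and each member's value is to be read against that shift. With the median log2 level set equal in all libraries, 20.2% of all genes were lower without overlap, 4 of the 6 members still were, and the fold changes were -0.60 for Klf2, -0.59 for Klf3, -0.30 for Klf13, -1.11 for Klf7, 0.11 for Klf6 and 0.36 for Klf10. Klf6 thus crossed 0 with the scaling. These counts leave out Klf4 and Klf12, which did not reach the minimum.

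**Figure D2:**
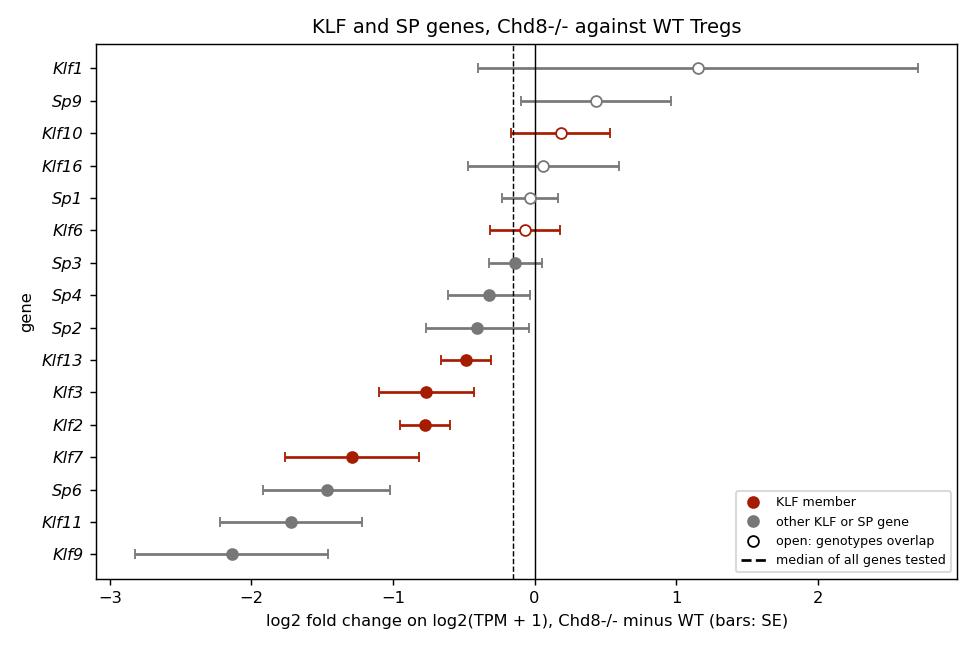
Log2 fold change (horizontal axis, log2(TPM + 1), Chd8-/- minus WT, bars are SE) of the 16 KLF and SP genes that were tested, with members in red, other family genes in grey, open circles where the genotypes overlap and a dashed line at the median of all genes tested, -0.15. Klf9, Klf11, Sp6 and Klf7 lie at -1 or less, and Klf6 and Klf10 lie among the genes near 0.

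The order of the members by level differed between genotypes mainly in who was close to whom. In WT Tregs, Klf6 (mean 175.65 TPM), Klf2 (161.65 TPM), Klf3 (148.5 TPM) and Klf13 (131.75 TPM) formed a top group in which each gene's range overlapped that of its neighbour. In Chd8-/- Tregs, Klf6 (169.95 TPM) stood alone above Klf2 (94.1 TPM), Klf13 (93.95 TPM) and Klf3 (89.9 TPM), whose ranges overlapped one another and not that of Klf6. Klf10 (12 TPM) and Klf7 (4.35 TPM) did not overlap in Chd8-/- Tregs, whereas in WT their ranges did. Klf4 and Klf12 were last in both. The study's methods give an Illumina RNA-Seq kit for these libraries and in the same passage a single-cell kit that reads transcript ends. Levels between genes are compared here as full-length RNA-Seq. Had transcript ends been read, the scaling by gene length in TPM would be unsuited. The order of the members above, and the size of the ratios between genes below, might then not hold.

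Ratios to Klf6 within a library, which no scaling of whole libraries can move, overlapped between genotypes for Klf13 and not for Klf2 and Klf3. The share of all genes whose ratio to Klf6 did not overlap was not computed. By level alone, 27.8% of all genes were lower without overlap. Klf6 itself varied between the Chd8-/- libraries, at 199.5 and 140.4 TPM. Klf2 stood at 0.978 and 0.871 of Klf6 in the WT libraries and at 0.451 and 0.699 of it in the Chd8-/- libraries. Klf3 stood at 0.826 and 0.862 of Klf6 in WT and at 0.573 and 0.466 in Chd8-/- Tregs. Both ratios were lower in each Chd8-/- library than in either WT library. Klf13 stood at 0.844 and 0.670 of Klf6 in WT and at 0.467 and 0.675 in Chd8-/- Tregs, which overlapped. Taken against Klf13 instead, Klf2 stood at 1.159 and 1.3 in WT and at 0.967 and 1.036 in Chd8-/- Tregs, without overlap. Summed over the 8 genes, KLF transcripts came to 612.3 and 670.7 TPM in WT and to 513.3 and 416.3 TPM in Chd8-/- Tregs, and Klf6 made up 26.5% and 28.2% of the sum in WT and 38.9% and 33.7% in Chd8-/- Tregs. A ratio shows that the genes differed unequally and not which of them moved.

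**Figure D3:**
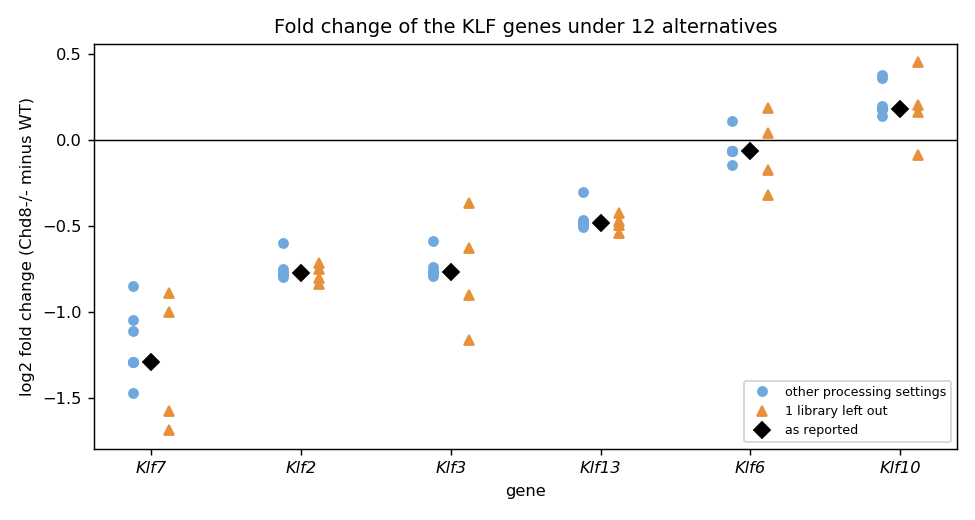
Log2 fold change (vertical axis, Chd8-/- minus WT) of the 6 KLF genes tested, as reported (diamonds), under 8 other processing settings (circles, some on top of each other) and with each library left out (triangles). Klf7, Klf2, Klf3 and Klf13 stay below 0 in all 12 alternatives, while Klf6 and Klf10 cross it.

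Genes that overlap Klf3 and Klf13 were also lower in both Chd8-/- libraries. Gm31684, a lncRNA at chr5:64816838-64819750 on the strand of Klf3 and within its span, shares no exon base with it. It had 120.9 and 101.3 TPM in WT and 67.7 and 32.2 TPM in Chd8-/- Tregs (log2 fold change -1.23, SE 0.41, limma adjusted p = 0.470). Gm38457, at chr5:64802370-64809180 on the opposite strand, covers the start of Klf3 and shares 5.07% of its exon bases, and had 21.3 and 25.6 TPM in WT and 13.5 and 15.1 TPM in Chd8-/- Tregs. Within Klf13, on the opposite strand and without a shared exon base, lie E030018B13Rik, at chr7:63916857-63920539, and Gm27252, at chr7:63896384-63900537. E030018B13Rik had 78.8 and 72.6 TPM in WT and 40.3 and 43.1 TPM in Chd8-/- Tregs (log2 fold change -0.84, SE 0.20, limma adjusted p = 0.427), and Gm27252 had 25.9 and 24.2 TPM in WT and 14.5 and 11.8 TPM in Chd8-/- Tregs. All 4 were lower without overlap, as 27.8% of all genes were, and they were described after their values were seen. Whether reads were counted by strand is not given in the sources used here, so reads from a host's introns or from the opposite strand cannot be told apart from reads of these genes. Mir6899, within Klf7 at chr1:64042438-64042501, had 96.1 and 465.2 TPM in WT and 141.3 and 53.3 TPM in Chd8-/- Tregs, which overlapped. So short a gene takes a high TPM from few reads. Gm35248, at Klf10, had 0.7 and 0.2 TPM in WT and 0.1 and 1.5 TPM in Chd8-/- Tregs and was not tested. Gm35880, at Klf7, and Gm41231, at Klf12, were at 0 in every library.

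Among the 18 other KLF and SP genes, 10 were tested, 6 were lower without overlap (27.8% of all genes) and 0 higher, with a median log2 fold change of -0.23, or -0.38 without Chd8-/- replicate 2. The 3 with the largest difference were all lower. Klf9, which like KLF10 and KLF13 binds SIN3, had 19.9 and 13.3 TPM in WT and 6.0 and 1.2 TPM in Chd8-/- Tregs (log2 fold change -2.14, SE 0.68, limma adjusted p = 0.462), and was -1.30 without Chd8-/- replicate 2. Klf11, the close relative of Klf10, had 20.2 and 8.9 TPM in WT and 3.5 and 3.3 TPM in Chd8-/- Tregs (-1.72, SE 0.50, limma adjusted p = 0.447). Klf11 was therefore lower without overlap where Klf10 was not, though the difference between the 2 genes was not tested. Sp6 had 12.8 and 8.9 TPM in WT and 4.4 and 2.3 TPM in Chd8-/- Tregs (-1.47, SE 0.45, limma adjusted p = 0.455). Sp1 and Sp3, broadly expressed factors that bind GC boxes, were near the median of all genes, with log2 fold changes of -0.03 (SE 0.20) and -0.14 (SE 0.19). With the medians set equal, 3 of these 10 genes were lower without overlap and their median was -0.05. Klf1, the erythroid factor, was at 1.6 and 0.6 TPM in WT, at 0 in Chd8-/- replicate 1 and at 19.7 TPM in Chd8-/- replicate 2.

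T cell trafficking genes linked to KLF2 or KLF13 were measured next. Of the 6 described, 3 were lower without overlap (27.8% of all genes) and 0 higher, their median log2 fold change was -0.48, and 0 passed the adjusted p. The median was -0.12 without Chd8-/- replicate 2 and -0.31 with the medians set equal, where 2 of 6 were lower without overlap. S1pr1, the receptor that lets T cells leave lymphoid organs along sphingosine-1-phosphate, had 356.3 and 401.4 TPM in WT and 225.9 and 177.7 TPM in Chd8-/- Tregs (log2 fold change -0.91, SE 0.20, limma adjusted p = 0.406). Its fold change was below 0 with each library left out. Ccl5, the chemokine gene activated by KLF13, had 232.0 and 157.6 TPM in WT and 10.1 and 157.0 TPM in Chd8-/- Tregs. Ccl5 counted as lower without overlap only by the narrow gap between 157.0 and 157.6 TPM. Its log2 fold change of -2.20 (SE 1.33, limma adjusted p = 0.630) rested on Chd8-/- replicate 1, without which it was -0.28, and was -4.11 without Chd8-/- replicate 2. Itgb7, an integrin chain of gut homing, was also lower without overlap (-0.75, SE 0.40), and was -0.23 without Chd8-/- replicate 2. Ccr7, S1pr4 and Cd69 overlapped between genotypes, with log2 fold changes from -0.21 to 0.07.

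**Figure D4:**
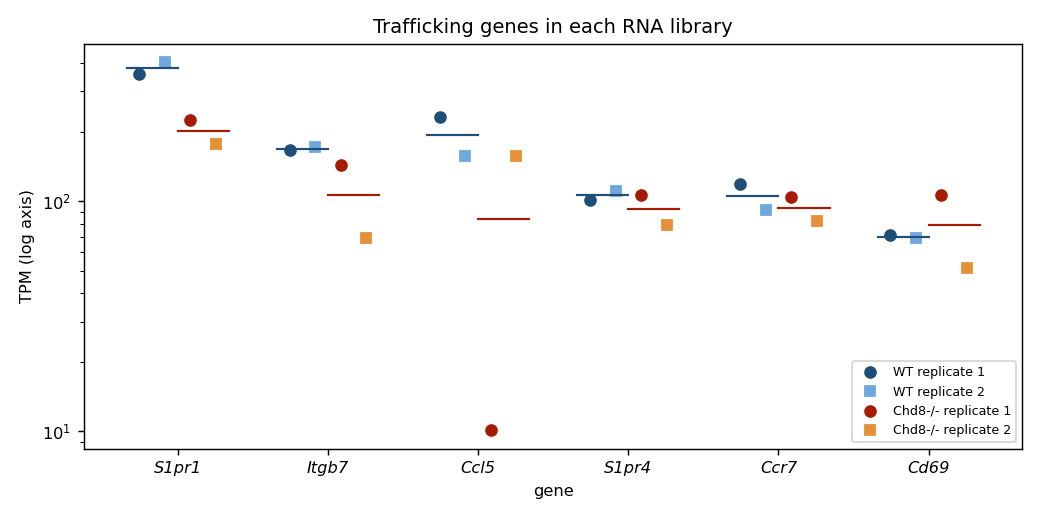
TPM (log axis) of 6 trafficking genes in each RNA library, with short lines for the means of WT (blue) and Chd8-/- (red). S1pr1 and Itgb7 show both Chd8-/- points below both WT points, and S1pr4, Ccr7 and Cd69 interleave. Ccl5 is at 10.1 TPM in Chd8-/- replicate 1, while Chd8-/- replicate 2 at 157.0 TPM nearly meets WT replicate 2 at 157.6 TPM.

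Of 17 quiescence factors other than the KLF genes, all tested, 9 were lower without overlap (27.8% of all genes), 1 was higher, and the median log2 fold change was -0.29. It was -0.53 without Chd8-/- replicate 1, -0.14 without Chd8-/- replicate 2, -0.18 without WT replicate 2 and -0.12 with the medians set equal, where 6 of the 17 were lower without overlap. Bach2, a repressor that holds back effector programs, had 19.2 and 24.6 TPM in WT and 7.0 and 8.1 TPM in Chd8-/- Tregs (log2 fold change -1.41, SE 0.32, limma adjusted p = 0.408). Foxp1, required for naive T cell quiescence, had 13.9 and 13.3 TPM in WT and 5.4 and 5.3 TPM in Chd8-/- Tregs (-1.20, SE 0.32, limma adjusted p = 0.433). Il7r, the receptor of the survival cytokine IL-7 and, like Klf2, a target of FOXO1, differed the other way, with 149.7 and 126.7 TPM in WT and 504.5 and 366.8 TPM in Chd8-/- Tregs (1.64, SE 0.23, limma adjusted p = 0.373). The list was therefore not uniform. Foxo1 itself, an upstream activator of Klf2 chosen for mention after its values were seen, had 357.8 and 368.8 TPM in WT and 210.8 and 189.3 TPM in Chd8-/- Tregs (-0.86, SE 0.16, limma adjusted p = 0.402).

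Regulators of KLF genes and partners of KLF proteins were taken from lists of their own. Of 12 upstream regulators, which comprise the ERK5 and MEF2 pathway and TGF-β signaling, 11 were tested, 6 were lower and 1 higher without overlap (27.8% and 14.8% of all genes), and the median log2 fold change was -0.36. With the medians set equal, 3 were lower without overlap and the median was -0.18, and without Chd8-/- replicate 2 it was -0.20. Mapk7, the gene of ERK5, had 1.8 and 1.7 TPM in WT and 1.6 and 0.1 TPM in Chd8-/- Tregs (-0.70, SE 0.59), and was -0.08 without Chd8-/- replicate 2 and -1.32 without Chd8-/- replicate 1. Mef2d had 21.6 and 18.7 TPM in WT and 13.3 and 14.1 TPM in Chd8-/- Tregs (-0.52, SE 0.28). Mef2a had a log2 fold change of -0.41 (SE 0.37), or -0.20 without Chd8-/- replicate 2, and Mef2c was at 0.1 TPM or less in every library. The smallest limma adjusted p in this list was 0.589. Of 10 corepressors and E3 ligases that act on KLF proteins, 9 were tested. Without overlap, 3 were lower (27.8% of all genes) and 0 higher (14.8% of all genes). The 3 were the ligase genes Fbxw7 (-0.64, SE 0.34), Wwp1 (-0.43, SE 0.32) and Smurf1 (-0.40, SE 0.39, or -0.16 without Chd8-/- replicate 2). The ligase gene Itch overlapped between genotypes (-0.09, SE 0.21). The median of these 9 was -0.09, with -0.30 without WT replicate 1 and 0.08 with the medians set equal.

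Because KLF2 is lost when T cells are activated, activation and immediate early genes were set beside the KLF values. Of 8 activation markers, 5 were higher without overlap (14.8% of all genes) and 0 lower, and their median fold change was 0.54 on the log2 scale. The median was 0.41 without WT replicate 1 and 0.72 with the medians set equal, where 23.8% of all genes were higher without overlap. Pdcd1 (-0.36, SE 0.29), Myc (0.19, SE 0.25) and Mki67 (0.26, SE 0.38) overlapped between genotypes. Icos, a costimulatory receptor, had 110.0 and 110.3 TPM in WT and 254.0 and 212.5 TPM in Chd8-/- Tregs (1.07, SE 0.19, limma adjusted p = 0.402). Tnfrsf4, which encodes OX40, had 284.0 and 253.4 TPM in WT and 474.4 and 473.4 TPM in Chd8-/- Tregs (0.82, SE 0.16, limma adjusted p = 0.403). Tnfrsf9, which encodes 4-1BB, had 43.2 and 42.8 TPM in WT and 84.6 and 61.4 TPM in Chd8-/- Tregs (0.73, SE 0.25, limma adjusted p = 0.472). Immediate early genes, which respond within minutes to signaling and to cell handling, had 4 of 11 tested lower (27.8% of all genes) and 4 higher (14.8% of all genes) without overlap and a median of 0.0019. With the medians set equal 0 of the 11 were lower without overlap, and the median ran from -0.31 without WT replicate 2 to 0.19 without Chd8-/- replicate 1. Jun had 4.7 and 10.4 TPM in WT and 20.1 and 29.3 TPM in Chd8-/- Tregs (1.65, SE 0.48), Ier3 had 2.6 and 18.8 TPM in WT and 2.5 and 1.0 TPM in Chd8-/- Tregs (-1.67, SE 0.95, or -0.44 without WT replicate 2 and -2.90 without WT replicate 1), and Dusp1 had 77.9 and 83.6 TPM in WT and 173.7 and 92.0 TPM in Chd8-/- Tregs (0.64, SE 0.36, or 0.19 without Chd8-/- replicate 1 and 1.10 without Chd8-/- replicate 2). What activation or handling contributed to the KLF values was not tested.

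Treg identity was plain in all libraries, with Foxp3 at 202.8 to 232.1 TPM, and 10 of 10 Treg and CD4 T cell markers present in each. Chd8-/- replicate 2 stood apart. Its correlation with the other libraries was 0.840 to 0.860 on the log2 scale, against 0.897 to 0.919 among the other 3. Its summed level of 10 myeloid markers was 2143.3 TPM, against 330.8 to 590.4 TPM in the other libraries, and its sum of 5 erythroid markers was 1063.3 TPM, against 8.8 to 212.4 TPM. Lyz2 alone was at 1360.3 TPM there, and 0 of the 10 myeloid markers were listed at 0, against 1 to 4 elsewhere. The sum of 6 B cell markers was 142.9 TPM there and 31.8 to 46.1 TPM elsewhere. The 7 CD8 T and NK markers summed to 59.5 to 95.8 TPM. KLF2 and KLF4 are high in endothelial cells, whose 5 markers summed to 26.7 and 26.1 TPM in WT and to 13.1 and 14.1 TPM in Chd8-/- Tregs. Pecam1, which leukocytes also express, made up most of it, with 26.6 and 25.8 TPM in WT and 13.1 and 8.5 TPM in Chd8-/- Tregs (log2 fold change -1.23, SE 0.33, limma adjusted p = 0.433), and so was lower without overlap as Klf2 was. Of the more defining markers, Kdr reached 5.3 TPM in Chd8-/- replicate 2 and 0.1 TPM or less elsewhere, and Cdh5, Vwf and Tie1 were at 0.2 TPM or less in all libraries. Chd8-/- replicate 1 had the lowest sums of myeloid and erythroid markers. The Klf2 log2 fold change was -0.84 without Chd8-/- replicate 2 and -0.71 without replicate 1, and the Klf13 values were -0.50 and -0.47 in the same order. The part of RNA from other cells in the KLF values was not tested. In bulk libraries, fewer cells of a type and less RNA per cell cannot be told apart.

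**Figure D5:**
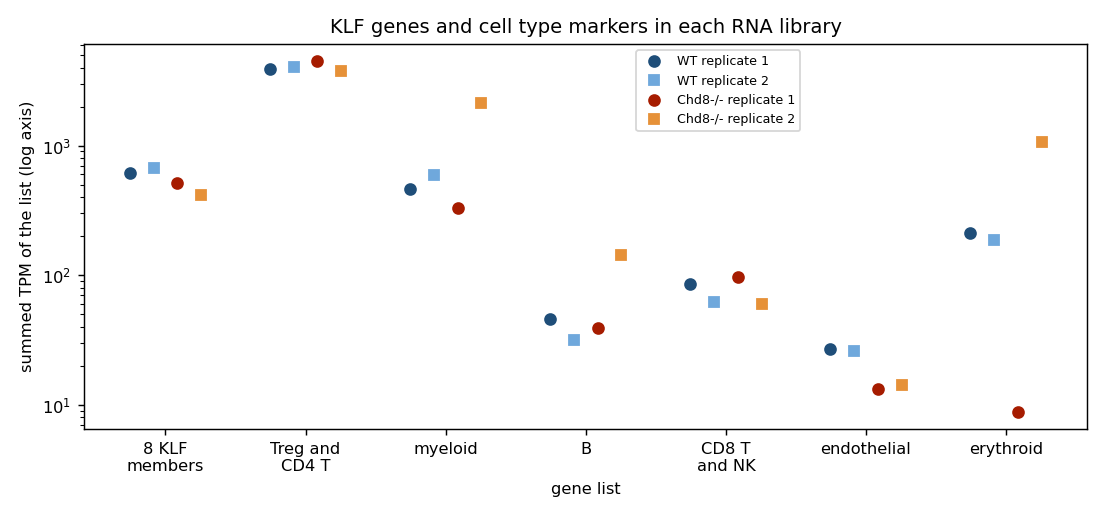
Summed TPM (log axis) of the 8 KLF genes and of 6 lists of cell type markers in each RNA library, points being single libraries. Chd8-/- replicate 2 is highest for myeloid, B cell and erythroid markers at 2143.3, 142.9 and 1063.3 TPM, whereas the KLF sum lies between 416.3 and 670.7 TPM.

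By distance between profiles, each taken as log2(TPM + 1) minus its mean over the 4 libraries, the genes most like Klf7 among 11300 with a mean of at least 5 TPM were Xndc1 (distance 0.150), Gm30466 (0.163) and Fdxacb1 (0.163). Xndc1 had 15.1 and 20.8 TPM in WT and 10.1 and 4.9 TPM in Chd8-/- Tregs. Within a distance of 0.2 of Klf7 lay 6 genes. Most like Klf10 were Scaf4 (0.0741), Ncoa5 (0.0769) and Nrros (0.0839), of which Scaf4 had 16.1 and 15.1 TPM in WT and 13.8 and 21.1 TPM in Chd8-/- Tregs. As many as 120 genes lay within 0.2 of Klf10. With 4 libraries, likeness describes these samples and no more.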

How the data were processed

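The 8 genes and all gene lists were chosen with earlier results of these data known. Per the study's methods, the authors trimmed RNA-Seq reads with Trim Galore 0.4.2 and cutadapt 1.9.1 and aligned them to mm10 with STAR 2.6.1e. They then removed duplicate reads with sambamba and counted the rest with featureCounts 1.6.2. The deposited values are TPM, rounded to 0.1, without read counts. The depth of each library is therefore unknown and no counting interval is given. The columns listed 19540 to 20984 genes above 0. From there, 4 entries under repeated names were left out, genes with at least 1 TPM in at least 2 libraries were kept, and log2(TPM + 1) was fitted with limma 3.58.1 (eBayes with trend, genotype only, two-sided, tested on simulated data). Fold changes on that scale understate differences of low genes. Genes named were all 8 members, Chd8, and the 3 other family genes with the largest absolute log2 fold change. To these came the 3 largest without overlap of each other list, and the 3 most like the member with the highest and the lowest fold change. Sp1, Sp3, Klf1, Mef2c, Itch, Pdcd1, Myc, Mki67 and the overlapping genes were added after their values were seen, as were genes said to be added. Ccr7, S1pr4 and Cd69, which complete the trafficking genes described, and the cell type markers given by value were also named outside the rule above. Same-numbered libraries did not deviate together (correlation -0.0117 across 15240 genes), a measure over all genes that cannot exclude matching by sex or litter. The labels do not say which libraries were matched, so numbers were not used as pairs, and a fit with replicate number as a block is given below. 1 trafficking gene of the list is not reported here. Chromatin accessibility and CHD8 binding signal at the KLF genes were not analysed here, because the peaks are on mm39 and the annotation used is GRCm38.p6. The study's supplementary lists of CHD8 binding genes and of genes with changed accessibility were not used here.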

Additional observations from a re-analysis of the deposited data

How the results depend on the processing

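Over 12 alternatives (2 pseudocounts, 2 filters, 2 scalings, a replicate block, a fit without trend, and each library left out), 68 of 72 member fold changes kept their direction. Klf6 turned to 0.11 with medians set equal, to 0.04 without WT replicate 2 and to 0.19 without Chd8-/- replicate 2, and Klf10 turned to -0.086 without Chd8-/- replicate 2; the cause was not tested. With a library left out, Klf6 ran from -0.32 to 0.19 and Klf10 from -0.086 to 0.45. The number of members at -1 or less was 0 with a pseudocount of 5 TPM, which shrinks low genes, and 0 to 2 with a library left out, being 0 without Chd8-/- replicate 2 and 2 without Chd8-/- replicate 1. Members higher without overlap numbered 0 to 1 with a library left out, the 1 arising where a single Chd8-/- library remained. Of all genes, 28% were higher without overlap without Chd8-/- replicate 1, and 32.5% were without Chd8-/- replicate 2. The members' median was -0.45 with medians set equal and -0.61 to -0.43 with a library left out. With the replicate block the 6 fold changes were as reported, the smallest adjusted p of a member was 0.552 by limma, and no call at an adjusted p differed, while members with an unadjusted p under 0.05 numbered 1 in place of 3. No member passed an adjusted p of 0.05 in any alternative, their smallest adjusted p running from 0.208 to 0.971; over all genes 0 passed except with a mean of at least 5 TPM, where Cdkn1a and Mir7649 did (2 genes, limma adjusted p = 0.0347). Other pseudocounts and windows for chromatin accessibility were not run, since peaks could not be placed at the KLF genes. With 2 libraries a genotype and TPM of unknown depth, differences of Klf4 and Klf12 were not detectable.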
